A study of Rattus norvegicus with 65 samples.

Results

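Hypothalamic gene expression was compared between rats whose weight was lowered by food restriction and rats treated with a combination of gut hormones. The 12 libraries were chosen by their labels as all BWM animals (n = 7) and all PYY3-36 + liraglutide-treated animals (n = 5) of batch A, 1 of the 2 experimental periods of the study. They were 12 of the 65 libraries of the series and 12 of the 37 libraries of that batch. All animals were male Wistar rats, 9 to 10 weeks old at the start, and had been fed a high-fat diet for 6 weeks before the intervention. BWM animals then received restricted amounts of food, meant to match their body weight to that of rats with Roux-en-Y gastric bypass (RYGB). The paper states that they were heavier than RYGB-treated animals at the end. The other group chose freely between a high-fat and a low-fat diet and received 2 agents. These were PYY3-36 (0.1 mg/kg/day from an osmotic minipump under the skin) and liraglutide (0.4 mg/kg/day, injected under the skin once daily). Tissue was taken after 4 weeks of intervention and 10 h of fasting, and each library came from the whole hypothalamus of 1 animal. The groups differed in food allowance, in both agents, in the pump and in the injections, and these differences cannot be told apart. Nor can nuclei or cell types be told apart in whole tissue. The paper's list of groups gives the BWM animals as sham-operated as well as weight-matched, and its methods describe food restriction for them. A sham operation would be a further difference that cannot be told apart from the others. As references, batch A also held 5 sham-operated and 3 saline-treated animals, used here as the controls of BWM and of the infused arm, and 6 lean and 11 RYGB-treated animals.

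Liraglutide is a stable analogue of GLP-1 and acts on the receptor Glp1r, and PYY3-36 acts mainly on the receptor Npy2r. Both receptors are found on hypothalamic neurons that control feeding. In the arcuate nucleus, neurons that make Agrp and Npy promote eating, and neurons that make Pomc and Cartpt restrain it. Food restriction lowers circulating leptin, which is sensed in the same nucleus through Lepr. Immediate early genes are transcribed shortly after a neuron is stimulated and serve as markers of recent activity.

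Total counts on genes ran from 26168268 to 32726395 in BWM animals, with a median of 28434956. They were 32748100, 32311393, 27990618, 30088159 and 28077987 in the PYY3-36 + liraglutide-treated animals. The 2 ranges overlapped almost completely, and no difference of the means was detected (exact two-sided permutation test over 792 splits, p = 0.491). Levels below are CPM, the count of a gene relative to the TMM-scaled total of its library, and differences are log2 fold changes of BWM compared with PYY3-36 + liraglutide-treated animals, so that a positive value is a higher level in BWM.

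The tissue label was first checked against marker genes. The summed level of 24 transcription factors of hypothalamic nuclei ran from 151 to 231 CPM in BWM (median 191) and was 139, 255, 257, 133 and 263 CPM in the hormone-treated animals, with Dlx1 the most abundant. The groups overlapped in this sum. Dlx1 is also expressed in other parts of the forebrain, and the sum does not show that each library was hypothalamic. BWM replicate 1, at 202 CPM in this sum, had 0 CPM of Sim1 and 0 CPM of Otp, factors that specify the paraventricular nucleus, 0.524 CPM of vasopressin (Avp), 0.590 CPM of oxytocin (Oxt) and 3.31 CPM of melanin-concentrating hormone (Pmch). Each of these genes was above that level in every other library. The same library had 5256 CPM of 11 striatal markers, compared with 225 to 577 CPM in the other BWM animals and 253, 530, 785, 278 and 1096 CPM in the hormone-treated animals. All 11 striatal markers were highest there, among them Ppp1r1b, the dopamine-regulated phosphatase inhibitor of striatal neurons, at 1913 CPM. This library therefore went against its tissue label in part, and it lay apart on the first principal component, which held 35.9% of the variance between the 12 libraries.

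BWM replicate 5 stood apart in another way. Its 12 markers of the anterior pituitary summed to 78422 CPM, mainly growth hormone (Gh1) at 63934 CPM and prolactin (Prl) at 13136 CPM, and all 12 were highest there. The sum was 1235 CPM in BWM replicate 7, 435 CPM in BWM replicate 6 and 3.64 to 17.5 CPM in the other BWM animals. In the hormone-treated animals it was 8.15, 39.6, 6.59, 7.45 and 101 CPM. The 13 markers of the choroid plexus, led by transthyretin (Ttr), summed to 2196 CPM in BWM replicate 2 and 975 CPM in BWM replicate 3, compared with 35.3 to 327 CPM in the other BWM animals and 64.6, 49.3, 39.1, 125 and 97.6 CPM in the hormone-treated animals. The 11 markers of meningeal fibroblasts, led by Igf2, summed to 4371 CPM in BWM replicate 7 but 107 CPM in BWM replicate 1, with a median of 1430 CPM over BWM and values of 2455, 1112, 857, 905 and 431 CPM in the hormone-treated animals. None of these lists had a marker with 0 counts in all 12 libraries. PYY3-36 + liraglutide replicate 4 had the highest blood sum, 349 CPM of 6 hemoglobin and erythroid genes, against 5.82 to 29.4 CPM in the other 4 animals of its group. PYY3-36 + liraglutide replicate 3 had 4.41 CPM of hypocretin (Hcrt) and 28.4 CPM of Pmch, peptides of the lateral hypothalamus, where the other 4 animals of its group had at least 89.8 and 832 CPM. In tissue of this kind, fewer cells of a type and less RNA per cell cannot be told apart.

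**Figure D1:**
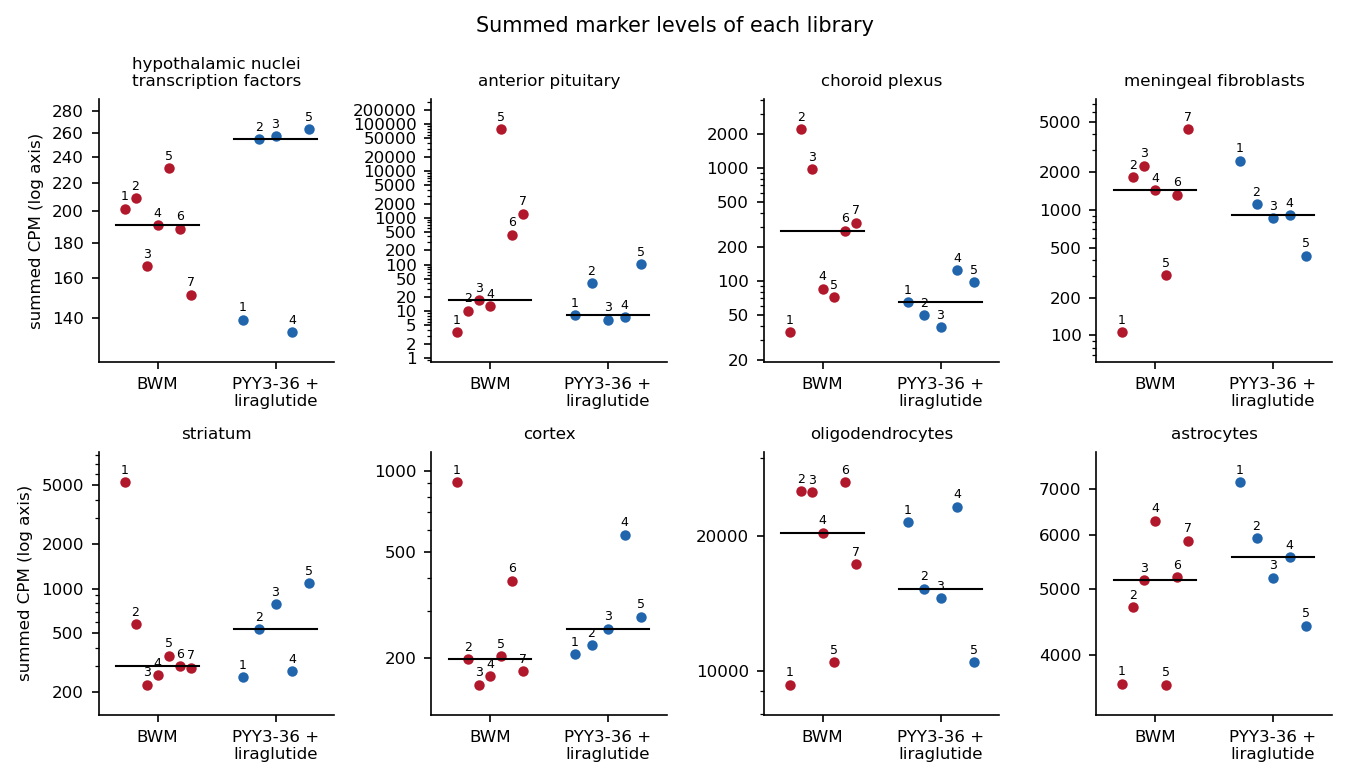
Summed level of 8 marker lists in each library, in CPM on log axes, with points for animals, numbered by replicate, and lines for group medians (BWM, n = 7, and PYY3-36 + liraglutide, n = 5). BWM replicate 1 is highest for the striatum at 5256 CPM and BWM replicate 5 for the anterior pituitary at 78422 CPM.

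Which hypothalamic genes differ between weight loss by restriction and treatment with both hormones was asked across all genes. No gene reached the threshold. Of 19896 genes tested with edgeR, 0 (0%) were regulated at an adjusted p under 0.05 with an absolute log2 fold change over 1, and 0 (0%) at the adjusted p alone, with 0.622 the smallest adjusted p. At an unadjusted p under 0.05 there were 1594 genes (8.01%), 955 higher in BWM (4.8%) and 639 lower (3.21%). All 18 immediate early genes had a positive difference, with a median log2 fold change of 1.24 where all genes tested had 0.02.

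Without BWM replicate 5, edgeR again gave 0 regulated genes (0%) of 19837 tested, 0 at the adjusted p alone and 1459 (7.35%) at an unadjusted p under 0.05, with 0.664 the smallest adjusted p. The number at an unadjusted p depended more on BWM replicate 1, since it was 3492 without that library. It was 682 without PYY3-36 + liraglutide replicate 3 and 887 without PYY3-36 + liraglutide replicate 2. When BWM replicates 1 and 5 were left out together, an alternative chosen after seeing the data, 0 of 19694 genes were regulated and 3532 had an unadjusted p under 0.05, 2046 higher (10.4%) and 1486 lower (7.55%), with a smallest adjusted p of 0.242. With edgeR and RLE scaling, without a filter on low counts, or with all 37 libraries of batch A in the model, 0 genes were regulated, and 1668, 2132 and 1579 had an unadjusted p under 0.05. The median over all genes tested was 0.02 with TMM, 0.04 with RLE scaling and 0.04 in DESeq2, and no median of the lists described below had another sign under these scalings.

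DESeq2 gave another count. On the same 12 libraries it called 16 genes regulated, 11 higher and 5 lower in BWM, and 29 at the adjusted p alone, with 2237 at an unadjusted p under 0.05. Among the 11 were the immediate early genes Nr4a1, Fos, Dusp5 and Apold1, the choroid plexus gene Sostdc1, the Purkinje and bipolar cell gene Pcp2 and the rod transducin gene Gnat1, with Fam167b and 3 loci without an established name, RGD1563270, LOC100912617 and LOC102549596. Apold1 had an adjusted p of 0.000145 in DESeq2. RGD1563270 and Fam167b, with DESeq2 log2 fold changes of 22.7 and 5.70, were not among the genes tested in edgeR. Their calls thus have no edgeR value to be compared with. Their adjusted p in DESeq2 with a prior was 0.828 and 0.404, so neither passed there. LOC100912617 (0.120) and Sostdc1 (0.234) did not pass with the prior either. The 5 lower genes were Dlgap2, Kcnf1, Epha6, Rasgrp1 and Ano3. For these 5 the edgeR p lay between 0.456 and 0.819, and the edgeR difference of Rasgrp1 (0.30) and Ano3 (0.51) had the opposite sign. These genes were named after their values were seen. With a prior on the fold changes, DESeq2 called 2 genes, Nr4a1 and Gnat1. When all 65 libraries were fitted in edgeR with a term for the batch, 70 genes were regulated, all higher in BWM, and 97 passed the adjusted p alone. That fit compares BWM with 10 PYY3-36 + liraglutide-treated animals of both batches, and BWM animals were in batch A only. Of the genes named by rule, 6 passed the adjusted p in it, namely Gh1, Lhb, Tph2, Nr4a1, Nfkbia and Atf3. Of the 12 libraries, BWM replicate 5 was the highest for the pituitary genes Gh1 and Lhb and for Tph2 and Nr4a1. Neither this fit nor DESeq2 was run without BWM replicate 5, and its part in these counts was not tested.

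The 5 genes with the smallest p in each direction were named although none passed in edgeR. Higher in BWM were Gnat1, a rod transducin subunit, Dll4, a Notch ligand of endothelial cells, the protein kinase D gene Prkd2, the NF-kB inhibitor Nfkbia and the uncharacterized LOC102549596. Dll4 ran from 6.34 to 9.85 CPM in BWM (median 7.51) and was 3.86, 5.30, 3.98, 4.18 and 4.84 CPM in the hormone-treated animals. Every BWM animal was above every hormone-treated animal, and the log2 fold change was 0.82 (SE 0.16, edgeR p = 0.000168, adjusted p = 0.622) with and 0.84 without BWM replicate 5. In DESeq2, Dll4 (adjusted p = 0.000341), Prkd2 (0.00780) and Nfkbia (0.0332) passed the adjusted p but not the threshold on the fold change. Prkd2 ran from 17.2 to 24.4 CPM in BWM (median 19.6) and was 15.02, 12.3, 9.80, 13.5 and 12.04 CPM in the other group, again without overlap, with a log2 fold change of 0.68 (SE 0.14). Sham-operated animals had 20.04 ± 9.85 CPM of Prkd2 (SD, n = 5) and saline-treated animals 12.1 ± 0.849 CPM (SD, n = 3), and the control-adjusted difference was −0.03. Gnat1 was scarce, from 0.380 to 1.21 CPM in BWM (median 0.874) and 0.152, 0.308, 0.247, 0.202 and 0.247 CPM in the other group. Its groups did not overlap either, and the log2 fold change was 1.78 (SE 0.33). Nfkbia ran from 28.4 to 55.9 CPM in BWM (median 44.5) and was 31.7, 31.4, 19.7, 22.8 and 25.8 CPM in the other group, with a log2 fold change of 0.78 (SE 0.17). Only BWM replicate 1, at 28.4 CPM, lay within the range of the hormone-treated animals. The control-adjusted difference was 0.16 (SE 0.25) for Nfkbia and 0.69 (SE 0.31) for Dll4. It was 1.34 (SE 0.75) for Gnat1 and 1.81 (SE 0.53) for LOC102549596.

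Lower in BWM were RGD1307443 and LOC100362814, both without an established name, the neural adhesion gene Opcml, the cortical transcription factor Tbr1 and the glutamine transporter Slc38a1. RGD1307443 ran from 40.4 to 55.9 CPM in BWM (median 48.5) and was 61.1, 63.9, 70.7, 61.8 and 68.0 CPM in the hormone-treated animals. No value overlapped, and the log2 fold change was −0.44 (SE 0.09, edgeR p = 0.000208, adjusted p = 0.622). It passed the adjusted p in DESeq2 (0.00946), but not the threshold on the fold change. Opcml ran from 69.6 to 117 CPM in BWM (median 90.7) and was 125, 132, 157, 152 and 127 CPM in the other group, with a log2 fold change of −0.58 (SE 0.14) and no overlap. The cortical factor Tbr1 ran from 0.988 to 2.26 CPM in BWM (median 1.42) and was 4.38, 2.896, 3.24, 16.2 and 1.59 CPM in the other group. PYY3-36 + liraglutide replicate 5 lay within the BWM range and replicate 4 was the highest, and the latter library had the highest cortex sum of its group, 579 CPM over 11 markers. Slc38a1 had a log2 fold change of −0.45 and LOC100362814 of −0.49. In the fit without BWM replicate 5, Nr4a1 replaced LOC102549596 among the 5 higher genes, and Nrg1 (−0.62), Tm4sf19 (−1.16) and LOC108352010 (−1.05) joined RGD1307443 and Opcml among the lower ones. Over all genes tested, 67 (0.337%) had every BWM animal above every hormone-treated animal and 20 (0.101%) had every BWM animal below.

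Immediate early genes shared a direction, although none passed the adjusted p. All 18 had a positive log2 fold change, from 0.06 for Homer1 to 2.79 for Nr4a1, with a median of 1.24. At an unadjusted p under 0.05, 11 of the 18 (61.1%) were higher, compared with 4.8% of all genes tested, and 0 of 18 passed the adjusted p in edgeR. In 2 of the 18, Nr4a1 and Fos, the groups did not overlap, compared with 0.337% of all genes tested. Without BWM replicate 5 the median was 1.05 and 10 of 18 were higher at an unadjusted p, where 4.4% of all genes were. Without BWM replicates 1 and 5 the median was 0.82 and 9 of 18 were higher, where 10.4% of all genes were.

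Nr4a1 (gene19342 of the deposited table, Rnor_6.0 chr7:142899358-142920216, + strand) encodes an orphan nuclear receptor induced by neuronal activity. It ran from 26.3 to 336 CPM in BWM (median 65.1) and was 22.6, 8.81, 9.31, 20.2 and 16.7 CPM in the hormone-treated animals. BWM replicate 5 was highest, BWM replicate 7 followed at 164 CPM, and the lowest BWM animal was still above the highest hormone-treated one. The log2 fold change was 2.79 (SE 0.66, edgeR p = 0.000971, adjusted p = 0.622) with and 2.16 (SE 0.49, adjusted p = 0.664) without BWM replicate 5. Fos (gene16493, chr6:109300433-109303299, + strand), a subunit of the AP-1 transcription factor, ran from 27.1 to 81.2 CPM in BWM (median 30.6) and was 26.8, 9.52, 14.99, 15.03 and 13.7 CPM in the other group. The lowest BWM animal was just above PYY3-36 + liraglutide replicate 1, and the log2 fold change was 1.35 (SE 0.33) with and 1.26 without BWM replicate 5. Dusp1 (gene23432, chr10:16970642-16973425, + strand), a phosphatase that switches off MAP kinases, ran from 40.2 to 211 CPM in BWM (median 59.2) and was 51.6, 27.1, 23.7, 33.2 and 20.2 CPM in the other group. BWM replicate 7 was the highest, the groups overlapped, and the log2 fold change was 1.37 (SE 0.42). The median of the list in each library, relative to the mean of all 12, ran from −0.50 to 1.34 in BWM (median 0.52) and was −0.20, −0.85, −0.81, −0.36 and −0.38 in the other group. BWM replicates 5, 1 and 7, which also stood apart by pituitary, striatal and meningeal markers, were the highest, and BWM replicates 3 and 4 lay within the range of the hormone-treated animals. Without BWM replicates 5, 6 and 7 the median difference was 0.82, with 6 of 18 higher at an unadjusted p, where 2.18% of all genes were higher and 2.27% lower. The part of these tissues in the difference was not tested.

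Levels of these genes also varied over the reference groups of the batch, whose differences were not tested. Nr4a1 was 37.2 ± 19.9 CPM in sham-operated (SD, n = 5), 13.6 ± 3.17 CPM in saline-treated (n = 3), 72.0 ± 71.9 CPM in lean (n = 6) and 43.8 ± 39.2 CPM in RYGB-treated animals (n = 11) of the same batch. Fos was 25.4 ± 9.56, 15.9 ± 5.36, 41.6 ± 31.3 and 31.6 ± 13.7 CPM in these groups in the same order, and Dusp1 was 55.8 ± 12.6, 22.5 ± 4.15, 71.7 ± 60.0 and 59.8 ± 35.4 CPM. Saline-treated animals, which like the hormone-treated animals belonged to the infused arm, thus had the lowest mean of these 4 groups for all 3 genes. When each group was set against the control of its own arm, the median over the 18 genes was 0.31, where all genes tested had 0.02. Of the 18, 12 were positive and 0 had an unadjusted p under 0.05, where 2.72% of all genes were higher. The control-adjusted log2 fold change of Nr4a1 was 1.36 (SE 0.85), that of Fos 0.69 (SE 0.50) and that of Dusp1 0.08 (SE 0.55). With 3 saline-treated animals these control-adjusted values were within 2 SE of 0, which does not show that the groups were alike.

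**Figure D2:**
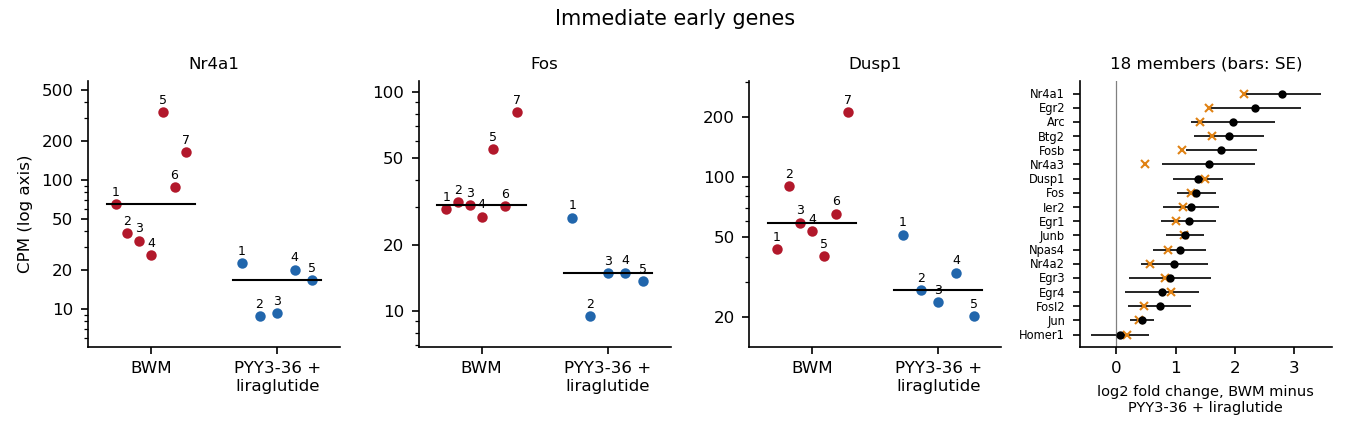
Levels of Nr4a1, Fos and Dusp1 in each library (CPM, log axes; points are animals numbered by replicate, lines are medians) and, at the right, the log2 fold change of the 18 immediate early genes with its SE (black), with crosses for the fit without BWM replicate 5. All 18 lie above 0.

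Because these genes shared a direction, their promoters were searched for 3 motifs in the 250 bases before the start site on both strands, in sequences of RefSeq (GRCr8). Of the 18 genes, 13 were matched by symbol, and Fos, Jun, Egr3, Arc and Nr4a3 were not. The cAMP response element TGACGTCA was found in 3 of 13 (23.1%), namely Ier2, Dusp1 and Btg2, and in 1.7% of all 27457 promoters. Its core CGTCA, which lies within the full element, was found in 9 of 13 (69.2%) and in 19% of all promoters. The CArG box, the site of serum response factor, was found in 2 of 13 (15.4%), Egr1 and Egr2, and in 1.5% of all promoters. A match is a description of the letters, and binding was not measured. The promoter stretches of Nr4a1 and Dusp1 are shown because these 2 genes had values described above and matched sequences. Nr4a1 is shown for chr7:134259888-134260119 (+ strand) and Dusp1 for chr10:17184651-17184766 (+ strand), with the core, on either strand, and the full element in capitals.
Nr4a1: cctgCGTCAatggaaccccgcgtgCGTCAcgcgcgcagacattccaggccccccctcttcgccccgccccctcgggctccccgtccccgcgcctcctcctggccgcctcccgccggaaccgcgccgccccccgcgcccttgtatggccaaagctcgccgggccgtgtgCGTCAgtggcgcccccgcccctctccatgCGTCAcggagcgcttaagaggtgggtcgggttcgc
Dusp1: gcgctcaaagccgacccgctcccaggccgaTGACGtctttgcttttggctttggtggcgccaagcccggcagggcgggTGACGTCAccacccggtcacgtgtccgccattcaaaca

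Among the arcuate feeding peptides, Pomc differed most in size. It ran from 3.41 to 2523 CPM in BWM (median 84.0) and was 4.23, 95.5, 13.6, 2.83 and 122 CPM in the hormone-treated animals. The high values were those of BWM replicates 5, 6 and 7, at 1207, 2156 and 2523 CPM, and the other 4 BWM animals lay within the range of the hormone-treated animals. These 3 libraries also had the highest pituitary sums, and Pomc is made in pituitary corticotrophs and melanotrophs as well as in arcuate neurons. The sums were 78422, 435 and 1235 CPM, so the library with the largest sum had the lowest Pomc of the 3. BWM replicates 6 and 7 also had the highest levels in BWM of Agrp (16.5 and 6.97 CPM) and Cartpt (243 and 269.6 CPM). BWM replicate 5 had 0.768 CPM of Agrp and 120 CPM of Cartpt. The log2 fold change of Pomc was 4.18 (SE 1.64, edgeR p = 0.0245, adjusted p = 0.622) in all libraries, 4.08 without BWM replicate 5 and −0.23 without BWM replicates 5, 6 and 7, an alternative chosen after seeing the data. The part of pituitary RNA, or of the share of arcuate tissue, in it was not tested.

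Agrp ran from 0.590 to 16.5 CPM in BWM (median 0.768) and was 0.973, 5.85, 0.776, 0.472 and 7.31 CPM in the other group. BWM replicates 6 and 7 and PYY3-36 + liraglutide replicates 2 and 5 had over 5 CPM and the other libraries under 2, so that high and low animals were found in both groups. Its log2 fold change of 0.35 (SE 1.003) became −0.71 without BWM replicate 6. Npy ran from 5.33 to 62.0 CPM in BWM (median 14.9) and was 10.2, 12.1, 9.20, 7.82 and 18.9 CPM in the other group, with a log2 fold change of 0.90 (SE 0.60). Cartpt ran from 91.2 to 269.6 CPM in BWM (median 116) and was 99.4, 141, 68.5, 67.3 and 184 CPM in the other group, with a log2 fold change of 0.42 (SE 0.35). BWM replicate 6 was high for all of Agrp, Npy, Pomc and Cartpt, and the groups overlapped in each. All 4 peptides had a positive difference in the fit with and without BWM replicate 5, with medians of 0.66 and 0.79, but not without BWM replicates 5, 6 and 7, where the median was −0.17.

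The receptors of both agents, Npy2r and Glp1r, had negative differences that did not pass the adjusted p, and the groups overlapped in both. Npy2r, the main receptor of PYY3-36, ran from 4.76 to 14.1 CPM in BWM (median 6.51) and was 9.98, 16.1, 15.1, 8.96 and 13.1 CPM in the hormone-treated animals. BWM replicates 4 and 6 reached into the upper group and the other 5 were below it. The log2 fold change was −0.67 (SE 0.26, edgeR p = 0.0249, adjusted p = 0.622), −0.57 without BWM replicate 5 and −0.29 (SE 0.57) after adjustment to the controls. Glp1r, the target of liraglutide, ran from 1.10 to 4.62 CPM in BWM (median 2.23) and was 3.77, 3.97, 3.46, 2.56 and 4.76 CPM in the other group. BWM replicates 1, 6 and 7 lay within the range of the hormone-treated animals and the other 4 were below it, and the log2 fold change was −0.58 with a 95% interval of −1.19 to 0.02. Saline-treated animals had 6.86 ± 3.70 CPM of Glp1r (SD, n = 3) and sham-operated animals 2.41 ± 1.30 CPM (SD, n = 5), and the control-adjusted difference had the opposite sign at 0.94 (SE 0.64).

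Of the 8 receptors of both hormone families, 7 were tested, 4 were positive, 2 were lower at an unadjusted p under 0.05 (3.21% of all genes were) and the median was 0.01. The second of these was Npy4r, the receptor of pancreatic polypeptide, with 0.0328 to 0.444 CPM in BWM (median 0.221) and 0.122, 0.524, 0.952, 0.371 and 0.529 CPM in the other group, a log2 fold change of −1.20 (SE 0.55) on few counts. The count of lower receptors was 1 without BWM replicate 5 (2.95% of all genes) and 0 without BWM replicates 1 and 5 (7.55%). Npy1r (0.12), Npy5r (0.01), the GIP receptor Gipr (0.17) and the glucagon receptor Gcgr (0.22) had small differences, and Glp2r had too few counts to be tested. Npy1r ran from 11.2 to 26.0 CPM in BWM and was 14.6, 13.3, 19.3, 12.7 and 19.8 CPM in the other group, so that the groups overlapped.

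**Figure D3:**
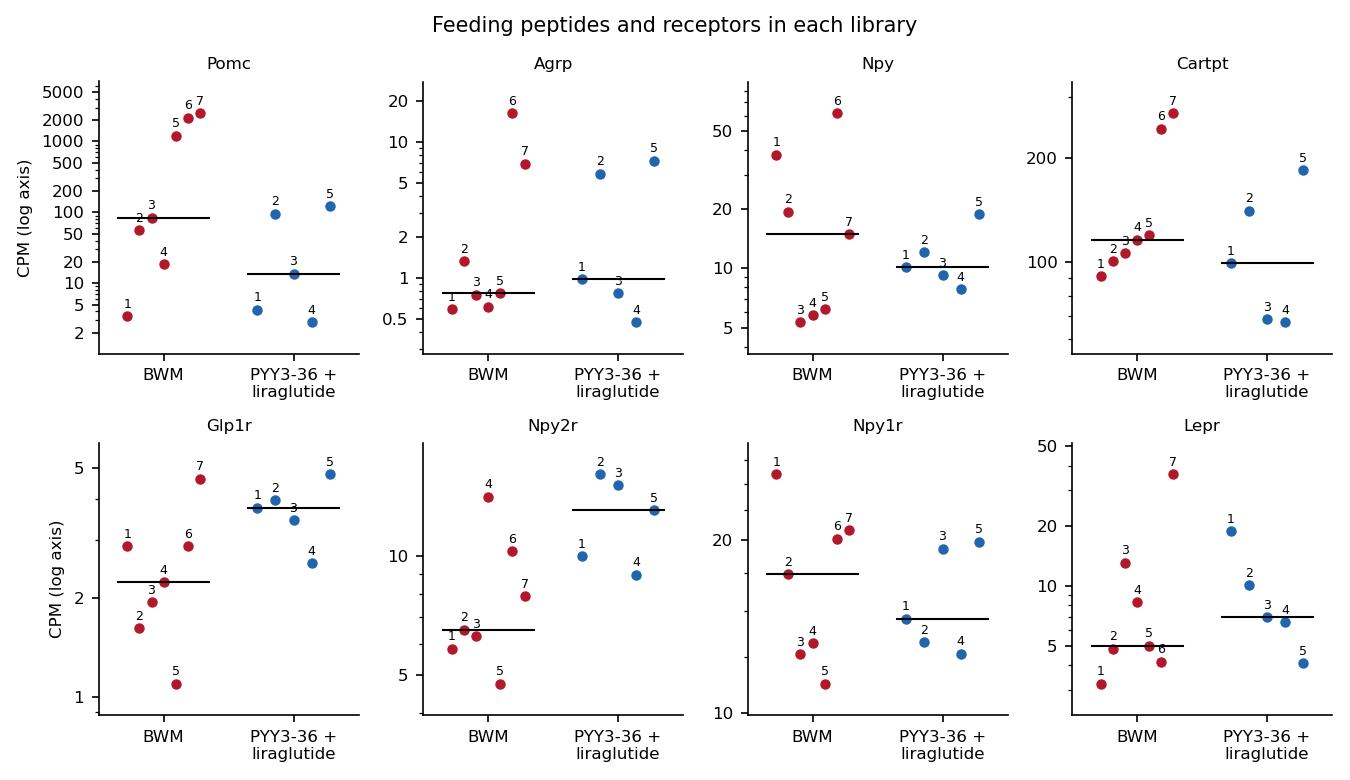
Levels of 4 arcuate feeding peptides and 4 receptors in each library (CPM, log axes; points are animals numbered by replicate, lines are medians; BWM, n = 7; PYY3-36 + liraglutide, n = 5). The Pomc levels of BWM replicates 5, 6 and 7 are above 1200 CPM, and those of the other 9 libraries are at or below 122 CPM.

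The leptin receptor Lepr did not separate the groups. It ran from 3.24 to 36.1 CPM in BWM (median 5.01) and was 18.8, 10.1, 6.98, 6.60 and 4.09 CPM in the hormone-treated animals. BWM replicate 7, the library with the highest meningeal and endothelial sums, was highest, and the other values overlapped. The log2 fold change was 0.20 with a 95% interval of −0.98 to 1.38 (edgeR p = 0.749), 0.32 without BWM replicate 5 and −0.50 without BWM replicate 7. Of 23 genes of leptin and JAK-STAT signaling, 12 were positive, and the median was 0.04. At an unadjusted p under 0.05, 4 of the 23 were higher, where 4.8% of all genes were, and 1 was lower, where 3.21% were. These were 2 (4.4% of all genes) and 0 without BWM replicate 5. Socs1, an inhibitor of cytokine receptor signaling, ran from 1.5001 to 3.004 CPM in BWM (median 2.19) and was 1.61, 1.36, 1.30, 1.82 and 1.09 CPM in the other group, with a log2 fold change of 0.66 (SE 0.22). BWM replicate 5 alone fell within the range of the hormone-treated animals. Stat4 (1.10, SE 0.39) was highest in BWM replicate 1 at 2.62 CPM. Socs2, which is induced by growth hormone, had 24.5 CPM in BWM replicate 5, the library with the high growth hormone level, and 5.17 to 11.5 CPM in the other BWM animals, and its log2 fold change was 0.89 with and 0.49 without that library.

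Of 21 receptors of satiety and adiposity signals, 14 were lower in BWM, with a median of −0.13. After adjustment to the controls the median was 0.09, with 17 of 21 positive. The BDNF receptor Ntrk2 ran from 319.7 to 571 CPM in BWM (median 413) and was 556, 681, 546, 446 and 505 CPM in the other group, with a log2 fold change of −0.35 (SE 0.15) and a control-adjusted difference of 0.00 (SE 0.21). BWM replicates 4 and 7 lay within the range of the hormone-treated animals. The cholecystokinin receptor Cckar had a log2 fold change of −0.85 and the melanocortin receptor accessory gene Mrap2 of −0.41. Of 24 genes of insulin and PI3K-Akt signaling, 18 were lower, 2 of them (8.33%) at an unadjusted p under 0.05, where 3.21% of all genes were, with a median of −0.14 and of −0.02 after adjustment to the controls. Gsk3b, a kinase inhibited by Akt, had −0.29 (SE 0.11), Tsc1 −0.30 (SE 0.13) and Rictor −0.27 (SE 0.13). Of 10 genes of AMPK and energy sensing, 6 were higher, with a median of 0.05, and the upstream kinase Stk11 (0.17), the catalytic subunit Prkaa2 (−0.27) and the coactivator Ppargc1a (−0.32) had small differences of both signs.

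Among 23 other feeding and hypothalamic peptides, 0 had an unadjusted p under 0.05 in either direction, and the median was −0.03. Nmu, neuromedin U, had 25.9 and 11.7 CPM in BWM replicates 7 and 6 and 0.376 to 3.92 CPM in the other BWM animals, and was 0.122, 2.34, 0.423, 0.168 and 5.65 CPM in the other group. Its log2 fold change of 1.89 became −0.92 without BWM replicates 5, 6 and 7. The opioid precursor Penk, abundant in striatum, had 1461 CPM in BWM replicate 1, and its log2 fold change was 0.66 with all libraries and 0.00 without BWM replicates 1 and 5. Nmb had 0.37. Of 10 releasing and posterior pituitary hormones, 0 had an unadjusted p under 0.05. Avp ran from 0.524 to 754 CPM in BWM (median 258) and was 1770.1, 231, 841, 1022 and 145 CPM in the other group, and Oxt from 0.590 to 891 CPM (median 228) against 1208, 144, 1145, 718 and 427 CPM. BWM replicates 1, 5 and 7 were low for both peptides, and the groups overlapped. The log2 fold change was −1.65 (SE 1.11) for Avp and −1.16 (SE 1.03) for Oxt. The paraventricular factors Otp (−1.23) and Sim1 (−1.03) were lower beside them, with 0 CPM of each in BWM replicate 1. Tac3 had 0.51.

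Serotonin and glycine receptors had 11 of 17 tested members lower in BWM and a median of −0.28. At an unadjusted p under 0.05, 4 of the 17 were lower (23.5%), where 3.21% of all genes were, and 0 were higher. Htr2c, the receptor through which serotonin activates Pomc neurons, ran from 54.0 to 133 CPM in BWM (median 97.6) and was 134, 103, 142, 164 and 132 CPM in the hormone-treated animals. BWM replicates 1, 3 and 4 lay within the range of the other group, BWM replicates 5 and 6 were lowest, and the log2 fold change was −0.59 (SE 0.22). Htr1a, an inhibitory serotonin receptor, ran from 0.809 to 3.82 CPM (median 1.74) against 3.28, 4.44, 3.91, 2.86 and 2.86 CPM, and had −0.88 (SE 0.34). Glra3 ran from 0.258 to 2.33 CPM (median 0.887) against 2.62, 2.40, 2.22, 1.55 and 1.98 CPM, and had −1.10 (SE 0.42). BWM replicate 4 was the only BWM animal within the range of the hormone-treated animals for Htr1a and Glra3. After adjustment to the controls Glra3 had the opposite sign at 1.51 (SE 0.79), and Htr1a (−1.14) and Htr2c (−0.69) were still negative. Without BWM replicate 5 the median of the list was −0.16 and 3 were lower at an unadjusted p (2.95% of all genes). The median was −0.75 without BWM replicates 1 and 5 and 0.13 without BWM replicates 5, 6 and 7, and the control-adjusted median was 0.09 with 9 of 17 positive.

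All 77 genes of the cytosolic ribosome had a positive log2 fold change, from 0.18 to 0.56, with a median of 0.40, and 68 of them (88.3%) had an unadjusted p under 0.05, compared with 4.8% of all genes tested. None passed the adjusted p in edgeR, and 4 of the 77 had every BWM animal above every hormone-treated animal, where 0.337% of all genes did. The median of the list in each library, relative to the mean of all 12, ran from −0.16 to 0.58 in BWM (median 0.01) and was −0.07, −0.33, −0.40, −0.10 and −0.13 in the hormone-treated animals. BWM replicates 2, 6 and 5 were the highest at 0.58, 0.51 and 0.23, and BWM replicate 1, at −0.16, lay within the range of the hormone-treated animals. Rpl18 ran from 166 to 255 CPM in BWM (median 193) and was 165, 143, 118, 158 and 158 CPM in the hormone-treated animals. BWM replicates 2 and 6 were highest, and the groups just failed to meet, with a log2 fold change of 0.43 (SE 0.14, edgeR p = 0.00775, adjusted p = 0.622). Rpl39 had 0.56 (SE 0.16) and Rpl31 0.49 (SE 0.16). Without BWM replicate 5 the median was 0.38 and 61 of 77 were higher at an unadjusted p, where 4.4% of all genes were. Without BWM replicates 5, 6 and 7 it was 0.32 with 12 of 77, where 2.18% of all genes were. Mitochondrial rRNA and tRNA took 1.57% and 1.92% of the counts in BWM replicates 2 and 6 and 0.593% to 0.976% in the other BWM animals. In the hormone-treated animals they took 0.737%, 0.475%, 0.784%, 0.977% and 0.812%, and the part of this share in the difference was not tested.

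Nuclear genes of oxidative phosphorylation were higher in 72 of 77 cases, with a median of 0.26 and 11 (14.3%) at an unadjusted p under 0.05, where 4.8% of all genes were higher. When BWM replicate 5 was left out, 74 of 77 were positive with a median of 0.31, and 25 were higher at an unadjusted p, where 4.4% of all genes were. Uqcr10, a subunit of complex III, ran from 63.7 to 141 CPM in BWM (median 81.9) and was 72.3, 58.5, 57.5, 77.6 and 69.1 CPM in the other group, with a log2 fold change of 0.47 (SE 0.19). BWM replicate 2 was highest, and BWM replicates 3, 5 and 7 lay within the range of the hormone-treated animals. The ATP synthase genes Atp5e (0.47) and Atp5g2 (0.24) were similar. After adjustment to the controls the ribosomal median was 0.15, with 73 of 77 positive and 3 higher at an unadjusted p (2.72% of all genes were), and the median of oxidative phosphorylation was −0.19, with 8 of 77 positive. Sham-operated animals had 199.5 ± 32.5 CPM of Rpl18 (SD, n = 5) and saline-treated animals 157 ± 17.7 CPM (SD, n = 3), and Uqcr10 was 104 ± 18.7 and 73.5 ± 11.7 CPM in these groups.

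Both lists consist of short genes, and the difference between the groups varied with length over all genes. The median exon length was 615 bases in the ribosomal list, 707 in the oxidative phosphorylation list and 2722.5 over all genes tested. Genes were divided by exon length into 5 classes of about equal number. In the shortest class (60 to 1368 bases) the median log2 fold change was 0.19, with 558 genes higher and 38 lower at an unadjusted p under 0.05. In the longest class (5177 to 103958 bases) it was −0.09, with 42 higher and 311 lower. Of the shortest class, 14.02% were higher at an unadjusted p, where the ribosomal list had 88.3% and oxidative phosphorylation 14.3%. The latter was 11 of 77 in all libraries but 25 of 77 without BWM replicate 5, and the share of the class without that library was not computed. The shortest class took 12.5% to 21.1% of the counts in BWM (median 15.5%) and 14.3%, 12.2%, 12.02%, 13.8% and 13.6% in the hormone-treated animals. BWM replicate 5, with its short hormone mRNA, and BWM replicates 2 and 6 were highest, and BWM replicates 1 and 4 lay within the range of the hormone-treated animals. After adjustment to the controls, the medians of the 5 length classes lay between 0.00 and 0.03. The part of RNA quality or library preparation in this was not tested. The median length of the immediate early genes was 3172.5 bases.

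**Figure D4:**
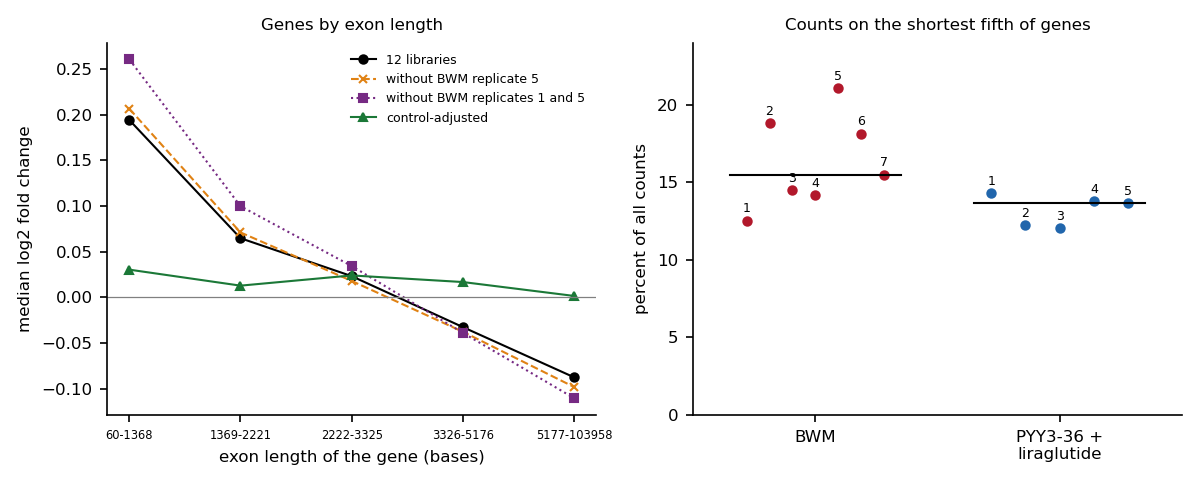
Left, median log2 fold change of genes in 5 classes of exon length, for the 12 libraries, without BWM replicate 5, without BWM replicates 1 and 5, and after adjustment to the controls, with 0.19 in the shortest and −0.09 in the longest class for the 12 libraries. Right, percent of all counts on the shortest class in each library (points numbered by replicate, lines are medians), where BWM replicate 5 is highest at 21.1%.

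Genes that respond to glucocorticoids were higher in 16 of 20 cases, with a median of 0.36. At an unadjusted p under 0.05, 6 of the 20 were higher, where 4.8% of all genes were, and 1 was lower, where 3.21% were. Map3k6 ran from 1.57 to 8.05 CPM in BWM (median 4.68) and was 2.28, 3.36, 2.15, 1.28 and 1.87 CPM in the hormone-treated animals. BWM replicate 7 was highest and BWM replicates 1 and 5 were within the other group, with a log2 fold change of 1.08 (SE 0.37). Sgk1, a kinase induced by corticosteroids, ran from 64.99 to 158 CPM in BWM (median 130.4) and was 71.7, 126, 55.6, 51.8 and 79.8 CPM in the other group, with 0.62 (SE 0.27). Per1, a clock gene that glucocorticoids also induce, ran from 71.3 to 149 CPM (median 81.1) and was 60.1, 81.8, 53.2, 51.3 and 69.4 CPM, with 0.58 (SE 0.19) and 0.43 without BWM replicate 5, its highest library. The groups overlapped in each of these 3 genes. Without BWM replicate 5 the median of the list was 0.31 with 4 of 20 higher at an unadjusted p, where 4.4% of all genes were. After adjustment to the controls it was −0.13 with 7 of 20 positive. Sgk1 was 115 ± 26.6 CPM in sham-operated (SD, n = 5) and 58.6 ± 13.2 CPM in saline-treated animals (SD, n = 3).

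Of 18 circadian clock genes, 11 were positive (61.1%), where 53.5% of all genes were, with a median of 0.08. Per1 was the only one of the 18 (5.56%) with an unadjusted p under 0.05, near the 4.8% of all genes that were higher. Nfil3 had 0.41 and Clock −0.17. Of 12 tested genes of the thyroid hormone axis, 6 were higher, with a median of 0.01. Dio2, the deiodinase of tanycytes and astrocytes that makes active thyroid hormone, ran from 8.68 to 38.7 CPM in BWM (median 27.1) and was 7.97, 16.3, 9.52, 18.7 and 15.7 CPM in the other group, with a log2 fold change of 0.86 (SE 0.39), 0.71 without BWM replicate 5 and 0.37 without BWM replicates 5, 6 and 7. BWM replicates 1, 5, 6 and 7 were above all hormone-treated animals and BWM replicates 2, 3 and 4 were not. The transporter Slco1c1 had 0.31. The receptor Thrb had 76.8 CPM in BWM replicate 5 and 17.4 to 29.0 CPM in the other BWM animals, and its log2 fold change was 0.16 with and −0.23 without that library.

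Genes of cholesterol and fatty acid synthesis were lower in 30 of 34 cases, with a median of −0.20. At an unadjusted p under 0.05, 5 of 34 were lower (14.7%, where 3.21% of all genes were) and 0 were higher. Lss, lanosterol synthase, ran from 20.4 to 39.6 CPM in BWM (median 28.0) and was 44.2, 44.0, 42.1, 40.3 and 37.1 CPM in the hormone-treated animals. BWM replicate 3 alone reached the range of the other group, and the log2 fold change was −0.48 (SE 0.16). Srebf2, a transcription factor that drives cholesterol synthesis, had −0.22 (SE 0.10). Without BWM replicate 5 the median of the list was −0.16 with 3 of 34 lower at an unadjusted p (2.95% of all genes), and without BWM replicates 1 and 5 it was −0.07. After adjustment to the controls it was −0.22 with 11 of 34 positive. Oligodendrocyte markers, whose cells make much of the cholesterol in brain, had a median of 0.00, and astrocyte markers had −0.30. Of 24 tested genes of fasting fuel use, 17 were higher, with a median of 0.04 and 0 at an unadjusted p under 0.05. Acadvl had 0.20, Acadm 0.13 and Fgf21 0.52.

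**Figure D5:**
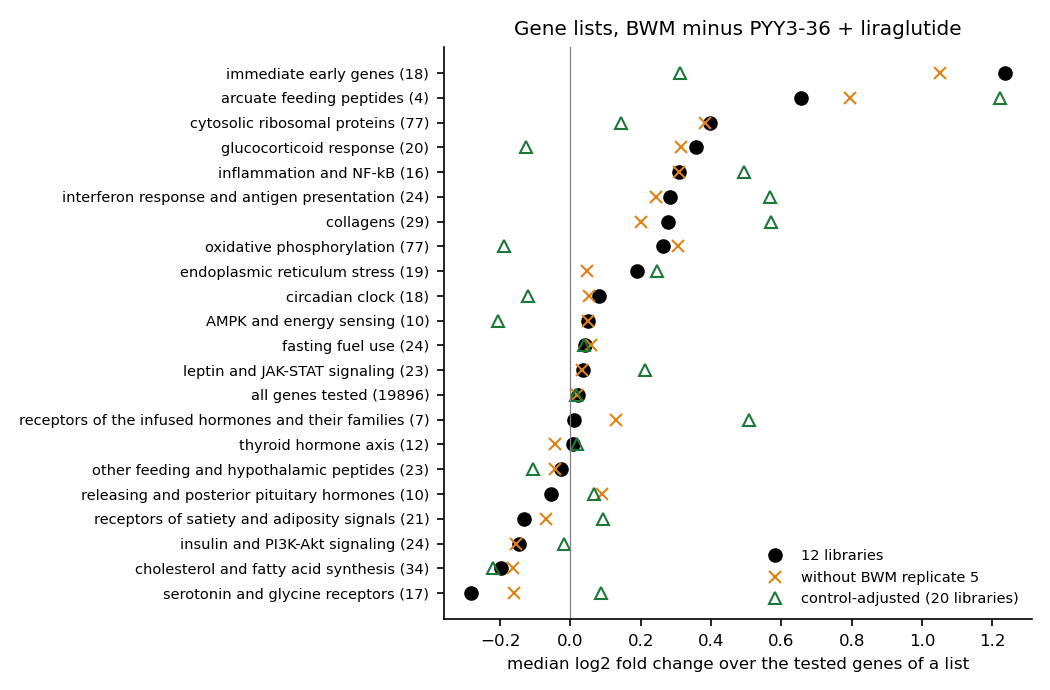
Median log2 fold change of the tested genes of each list (number in brackets), BWM compared with PYY3-36 + liraglutide-treated animals, for the 12 libraries (points), without BWM replicate 5 (crosses) and after adjustment to the controls (triangles). Immediate early genes are at 1.24 with and 1.05 without that library, and at 0.31 after adjustment.

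Stress and immune genes had mostly positive differences. Of 19 genes of endoplasmic reticulum stress, 17 were higher, with a median of 0.19 in all libraries and 0.05 without BWM replicate 5. Atf3, a stress-induced transcription factor, ran from 1.44 to 17.1 CPM in BWM (median 3.98) and was 3.71, 1.42, 1.20, 2.19 and 1.34 CPM in the other group, with a log2 fold change of 1.70 (SE 0.56). BWM replicates 7 and 5 were highest, and without BWM replicates 5, 6 and 7 the value was 0.65. Ddit3 had 0.30 and Manf 0.42. Of 16 tested genes of inflammation and NF-kB, 14 were higher, with a median of 0.31, and Nfkbia was the only one of the 16 (6.25%) with an unadjusted p under 0.05, near the 4.8% of all genes. Myd88 had 0.29 and Il18 0.42. Of 24 genes of the interferon response and antigen presentation, 20 were higher, with a median of 0.28 and 0 at an unadjusted p under 0.05. Cd74, the invariant chain of class II molecules, had 297 CPM in BWM replicate 7 and 5.11 CPM in BWM replicate 1, and 94.7, 61.9, 31.4, 39.4 and 27.7 CPM in the other group, with a log2 fold change of 0.998 (SE 0.67). The groups overlapped. Psmb8 had 0.59 and Psmb9 0.61. Without BWM replicates 1 and 5, where 10.4% of all genes were higher at an unadjusted p, 9 of the 24 interferon genes were, with a median of 0.42, and 9 of the 16 inflammation genes, with a median of 0.44. Of 29 collagens, 23 were higher, with a median of 0.28. Of the 29, 2 were higher at an unadjusted p (6.90%), near the 4.8% of all genes. Col27a1 had 0.76 (0.53 without BWM replicate 5), Col15a1 0.58 and Col25a1 −0.66.

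Meningeal and vascular markers had mostly positive differences, with 0 of 11 and 0 of 11 at an unadjusted p under 0.05. All 11 meningeal markers were positive, with a median of 0.38 in all libraries and −0.00 without BWM replicates 5, 6 and 7. Of 11 endothelial markers 10 were positive, with a median of 0.25. Without these 3 libraries the median was −0.05 for the interferon list, 0.07 for inflammation and −0.05 for collagens. The part of meningeal tissue in these differences was not tested. Igf2 had a log2 fold change of 0.65, Col3a1 0.74, Fmod 0.64, Cldn5 0.32, Esam 0.41 and Abcb1a 0.25.

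The remaining markers described the makeup of the libraries. Of 12 pituitary markers, 6 passed the filter on low counts with BWM replicate 5 and 4 without it. This library was known for its Gh1 and Prl when the comparison was chosen, so the differences of these markers are a description. Gh1 had 12.30 (SE 4.24) in all libraries. It did not pass the filter without BWM replicate 5, where it ran from 0 to 529.9 CPM in BWM and was 0.274, 0.154, 0.141, 0.0337 and 8.61 CPM in the other group. Tshb (3.57), Cga (3.53) and Lhb (2.88) were 3.11, 2.86 and 0.89 without BWM replicate 5 and −3.94, −3.21 and −0.35 without BWM replicates 5, 6 and 7. All 13 choroid plexus markers were positive, with a median of 1.03, 4 of them (30.8%) at an unadjusted p, where 4.8% of all genes were higher. Ttr ran from 23.6 to 2074 CPM in BWM (median 62.1) and was 19.0, 13.6, 6.38, 99.0 and 65.9 CPM in the other group, with 3.55 (SE 1.28). Sostdc1 had 3.18 (SE 0.95) and Otx2 1.03 (SE 0.43). BWM replicates 2 and 3 were the highest libraries for Ttr, and the groups overlapped.

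The 11 striatal markers were all positive in edgeR and 6 of 11 in DESeq2, with an edgeR median of 0.82 that became −0.76 without BWM replicates 1 and 5. Ppp1r1b had 0.96 and −0.58, Adora2a 1.24 and −1.22, and Drd2 0.90 and −0.41 in these fits. Cortical markers were lower in 9 of 11 cases, with a median of −0.53. Rorb had −0.23, and Lamp5 was 0.65 with and −0.61 without BWM replicates 1 and 5. Astrocyte markers were lower in 9 of 10 cases. Aqp4, the water channel of astrocyte endfeet, ran from 352 to 847 CPM in BWM (median 613) and was 1138, 745, 838, 765 and 601 CPM in the other group, with −0.50 (SE 0.22) in all libraries and −0.29 without BWM replicates 1 and 5. Aldh1l1 had −0.59 and S100b 0.15. Of 12 oligodendrocyte markers 7 were higher, and Mbp had 0.33, Mobp 0.32 and Ugt8 0.11.

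Neuronal markers were lower in 10 of 13 cases, with a median of −0.11. Map2 had −0.30 (SE 0.11), Nefh 0.42 (−0.01 without BWM replicate 7), Nefm 0.35 and Snap25 −0.06. Microglial markers had a median of 0.05, with Aif1 at 0.33, C1qa at 0.23 and Trem2 at 0.29. Markers of ependyma and tanycytes had 0.27, with Rarres2 at 0.59 and Vim at 0.35, and Vim was 1146 CPM in BWM replicate 7. Without BWM replicates 5, 6 and 7 the median of this list was −0.39, with 3 lower at an unadjusted p (2.27% of all genes), and that of the neuronal list was 0.19. Thalamic markers had 0.37, with Tcf7l2 at 0.72, Gbx2 at 1.54, Prkcd at 0.57 and Amotl1 at −0.33, and the median was 0.04 without BWM replicates 5, 6 and 7. All 6 tested habenular markers were lower, with a median of −0.26, Nwd2 at −0.48, Lrrc55 at −0.46 and Chrnb4 at −0.37. At an unadjusted p under 0.05, 2 of the 6 were lower (33.3%), where 3.21% of all genes were. Without BWM replicate 5 there were also 2 of 6, where 2.95% of all genes were. Markers of midbrain and raphe had −0.18, with Aldh1a1 at 0.23 and Pitx3 at −0.18. Tph2, the enzyme of serotonin synthesis in raphe neurons, had 2.17 (SE 0.81) and was highest in BWM replicates 5 and 7, at 8.78 and 6.62 CPM. The 6 blood markers were all lower, with a median of −0.51, Hba2 at −0.65, Hba-a1 at −0.65 and LOC689064 at −0.56. Without PYY3-36 + liraglutide replicate 4, Hba2 was 1.696. Hypothalamic transcription factors were lower in 16 of 24 cases, with a median of −0.14 and Dlx2 at −0.60. After adjustment to the controls the median had the opposite sign for thalamic markers (−0.80), midbrain and raphe (0.69) and hypothalamic transcription factors (0.49). The same held for circadian clock genes (−0.12), AMPK and energy sensing (−0.20), releasing and posterior pituitary hormones (0.07) and oligodendrocyte markers (−0.004, from 0.003).

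Each group was also set against the control of its own arm, as BWM minus sham-operated minus the difference of PYY3-36 + liraglutide-treated and saline-treated animals, in 20 libraries. This asks whether restriction and hormones differed in their distance from their own controls. In edgeR, 0 of 21146 genes (0%) were regulated and 0 passed the adjusted p alone, with 856 at an unadjusted p under 0.05, 575 higher (2.72%) and 281 lower (1.33%), and 0.979 the smallest adjusted p. DESeq2 also called 0 genes, with 1168 at an unadjusted p under 0.05. The unadjusted count was 2083 without BWM replicate 1 and 348 without saline replicate 1, and it rests on 3 saline-treated animals. Meningeal markers had a median of 1.87, with 11 of 11 positive and 4 higher at an unadjusted p, and collagens had 0.57, with 26 of 29 positive and 6 higher. Cortical markers had −1.52, with 1 of 11 positive and 4 lower. The arcuate peptides had 1.22, with 4 of 4 positive and 0 at an unadjusted p under 0.05, and the receptors of both hormone families 0.51. Anterior pituitary markers had 4.37, with 6 of 6 positive and 1 higher at an unadjusted p, and Pomc had 3.47 (SE 2.38). Leptin and JAK-STAT signaling had 0.21, with 17 of 23 positive, and Lepr 1.06 (SE 0.86).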

How the data were processed

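RNA of 12 rat hypothalami was analysed, 7 of BWM and 5 of PYY3-36 + liraglutide-treated animals of batch A, with groups taken from the labels. The authors made stranded poly-A libraries and, per the submitters' processing notes, used bcl2fastq 2.20.0.422, cutadapt 1.16, STAR 2.7.2b and featureCounts 1.6.4 with the genome build Rnor_6.0. Reads with several places or genes were counted as fractions, so the deposited values are estimated counts per gene. Of the nonzero values, 31.0% were not whole at a tolerance of 1e-06, and all were rounded to whole counts. Near-identical genes such as the hemoglobins, histocompatibility genes and ribosomal proteins can share reads.

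Genes passing filterByExpr (minimum count 10, minimum total 15) were TMM-scaled and tested with the robust quasi-likelihood test of edgeR 4.0.16 in R 4.3.3, at depths of 26168268 to 32748100 counts, with Benjamini-Hochberg adjustment over all genes tested. Adjusted and unadjusted p-values of genes are from edgeR unless DESeq2 (1.42.0) is named. The 95% intervals are log2 fold changes plus and minus the normal quantile times the SE, which was derived from the F statistic. The edgeR fits were tested on simulated data with known differences; the tables, promoter search and figures were not. Figures were drawn in Python 3.11.15 with matplotlib 3.10.9. Alternatives were RLE scaling, no filter, DESeq2 with and without a prior, a replicate block, all 37 or 65 libraries, each library left out in turn, and 2 added after seeing the data, BWM replicates 1 and 5, or 5, 6 and 7, left out together.

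Members and lists were chosen with earlier results of these data known. Of 689 list genes, 688 were found, 18 of them by gene number. Named were the 5 genes with the smallest p in each direction, with and without BWM replicate 5, since none passed. Also named were all arcuate peptides, all receptors of both hormone families and Lepr, 3 members of every other list with the smallest p without BWM replicate 5, and the most abundant marker of each tissue. Of the genes so named, 3 are not reported here. Among the other 129 genes, those with values given for each animal were picked after the values were seen. Symbols with 2 genes in the table were taken as the gene with most counts. Promoter sequences came from RefSeq (GRCr8).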

Additional observations from a re-analysis of the deposited data

Results flagged for a closer look

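In 24 of 160 groups of values tested (15%), 1 animal lay far from the others of its group by Dixon's criterion. The criterion marks about 1 in 20 groups when values are normally distributed. Levels were tested as CPM and not on a log scale, and all 24 marked values were the highest of their group. The genes described were also picked after their values were seen. The 15% can therefore not be compared with 1 in 20. Many of these values share a library, so they are not independent. The Gh1 and pituitary values of BWM replicate 5 were known when the comparison was chosen, and without them the count was 22 of 158 (13.9%). BWM replicate 5 was the highest of its group for Gh1 (63934 CPM), the pituitary marker sum (78422 CPM), Socs2 (24.5 CPM), Per1 (149 CPM) and Thrb (76.8 CPM). BWM replicate 1 was the highest for Ppp1r1b (1913 CPM), Penk (1461 CPM), Stat4 (2.62 CPM), the striatal sum (5256 CPM) and the cortical sum (909 CPM). BWM replicate 7 was the highest for Dusp1 (211 CPM), Lepr (36.1 CPM), Cd74 (297 CPM), Vim (1146 CPM) and the sum of ependymal and tanycyte markers (1485 CPM). BWM replicate 6 was the highest for Agrp (16.5 CPM) and Gipr (18.1 CPM), BWM replicate 2 for Ttr (2074 CPM) and BWM replicate 3 for the blood sum (179 CPM). In the hormone-treated group, replicate 4 was the highest for the blood sum (349 CPM), the cortical sum (579 CPM) and Tbr1 (16.2 CPM), replicate 5 for Gh1 (8.61 CPM) and replicate 1 for Vim (601 CPM). The causes were not tested.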

How the results depend on the processing

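In edgeR the counts of regulated genes and of genes at the adjusted p were 0 in both comparisons under every alternative on batch A that was run, with each library left out in turn (lowest and highest count 0). DESeq2 gave 16 and 29 genes, with a prior 2 and 25, and the fit of all 65 libraries with a batch term gave 70 and 97 for BWM compared with PYY3-36 + liraglutide. DESeq2 by default replaces outlying counts in groups of 7 or more, and the larger fit has more animals. Their part was not tested. The difference in total counts stayed negative without each library, from −1538490 to −337757 (exact permutation p 0.273 to 0.818). Replicate numbers did not pair the animals, since correlations of same-numbered libraries ran from −0.466 to 0.190 and 2 of 5 matched their own number best. With the replicate block, 0 genes were regulated and 589 had an unadjusted p under 0.05 in the first comparison and 483 in the control-adjusted one.

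Some log2 fold changes of the genes named by rule, all of which missed the threshold in edgeR, changed sign, and the cause was not tested. With the replicate block they were Agrp −1.20, Npy −0.0639, Gipr −0.00702, Npy1r −0.0283, Lepr −0.37, Thrb −0.0224, Igf2 −0.00616, Col3a1 −0.21, Hba-a1 0.50, Hba2 0.48, LOC689064 0.48, Abcb1a −0.0197, Nefm −0.00462, Ppp1r1b −0.41, Adora2a −0.32, Pitx3 0.0815, Vim −0.39 and Lamp5 −0.65. With DESeq2, where Rasgrp1 (−1.47) and Ano3 (−1.48), named after their values were seen, passed with a sign opposite to edgeR, Ppp1r1b was −0.68 and Adora2a −1.31, and with a prior −0.39 and −0.53, with Lamp5 −0.35. With 65 libraries, Npy5r was −0.0557, Hba2 0.0314, LOC689064 0.0567 and Pitx3 0.67. With RLE scaling, 37 libraries or no filter, 0 of the genes named by rule changed sign. Without BWM replicates 1 and 5, Npy5r was −0.0877, Thrb −0.20, Ppp1r1b −0.58, Adora2a −1.22, Drd2 −0.41, Snap25 0.022034 and Lamp5 −0.61. Without BWM replicates 5, 6 and 7, Agrp was −1.91, Pomc −0.23, Cartpt −0.11, Lepr −0.34, Nmu −0.92, Thrb −0.34, Tshb −3.94, Lhb −0.35, Cga −3.21, Aldh1a1 −0.20 and Vim −0.16.

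With single libraries left out the values ran from −1.39 to 1.86 for Adora2a, −0.71 to 0.95 for Agrp, −0.0170 to 1.28 for Col3a1, −0.15 to 0.94 for Gcgr, −0.0359 to 0.29 for Gipr, −0.95 to 2.01 for Hba-a1, −1.26 to 1.70 for Hba2, −0.78 to 0.86 for Lamp5, −0.50 to 0.62 for Lepr, −1.12 to 1.76 for LOC689064, −0.0144 to 0.61 for Nefh, −0.21 to 0.22 for Npy5r, −0.0245 to 0.90 for Penk, −0.59 to 0.88 for Pitx3, −0.71 to 1.32 for Ppp1r1b, −0.21 to 0.22 for Snap25, −0.23 to 0.27 for Thrb, −0.0342 to 0.25 for Ugt8 and −0.13 to 0.72 for Vim. The other tested genes named by rule kept their sign in these fits, and those named only for a DESeq2 call were not refitted. Of the named genes that missed the threshold in edgeR on 12 libraries, 9 passed the adjusted p with DESeq2, 8 with the prior and 6 in the fit of 65 libraries. Npy4r and Glp2r had under 1 CPM in each of the 12 libraries (at most 0.952 and 0.906).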
